A study of Mus musculus with 24 samples.

Results

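The cytosolic ribosomal proteins are the protein components of the ribosomes that translate nuclear-encoded messages. They were taken here as every probe whose platform gene symbol begins with Rpl or Rps and a number, together with the stalk proteins Rplp0, Rplp1 and Rplp2 and without the S6 kinases, whose symbols begin with Rps6k. The rule gave 94 probes of 64 genes among 45281 probes, and it used no measured value. By role the genes were 30 of the large subunit, 22 of the small subunit, 3 of the stalk, 8 duplicated or retroposed copies, and Rps19bp1, which is named for its partner and is no structural protein of the ribosome. Rpl5, Rpl7, Rpl10, Rpl11, Rps27 and Rps27a had no probe under these symbols and were not analysed here.

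Liver RNA was measured on Illumina bead arrays, 4 in each of 6 groups. The mice were male C57BL/6J, labelled 12 weeks of age, either lean controls or obese from their diet, with the diets themselves not named in the sources used here. Mice of each kind had a sham operation, in which the abdomen was opened and the liver handled without resection, or lost 70% or 80% of the liver, and all livers were taken 6 h later. The sample is whole liver, so a lower share of one cell type and less RNA per cell cannot be told apart. The labels number the replicates without saying whether each array is another mouse, so p-values measure the spread between arrays. The question is how diet and the extent of resection shaped the early ribosomal protein messages.

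A mammalian ribosome holds the ribosomal proteins in fixed proportions, and their messages are abundant in hepatocytes, the main secretory cell of the liver. Most of these messages start with a C followed by a run of pyrimidines, the terminal oligopyrimidine (TOP) motif, through which mTORC1 and LARP1 control their translation and stability together. Ribosome production rises before hepatocytes divide after partial hepatectomy. That control acts largely on translation, which arrays of total RNA do not measure.

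The start of the gene is therefore shown for some of the genes named below. Each window holds 40 bases before and 20 bases from the annotated start on the strand of the gene (RefSeq, GRCm38.p6). Capitals mark the longest run of at least 5 bases of C and T that begins with C within 5 bases of the start.
Rpl12, chr2:32961672-32961731, plus strand: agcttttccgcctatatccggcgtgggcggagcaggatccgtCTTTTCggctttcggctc
Rpl28, chr7:4792925-4792984, plus strand: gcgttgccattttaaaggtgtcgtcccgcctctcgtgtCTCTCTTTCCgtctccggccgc
Rps9, chr7:3704001-3704060, plus strand: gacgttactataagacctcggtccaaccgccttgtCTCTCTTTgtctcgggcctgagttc
Rps6, chr4:86857348-86857407, minus strand: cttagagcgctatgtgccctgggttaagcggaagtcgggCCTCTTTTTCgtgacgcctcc
Rps15a, chr7:118116128-118116187, minus strand: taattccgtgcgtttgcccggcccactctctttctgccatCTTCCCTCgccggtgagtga
Rpl22l1, chr3:28805468-28805527, plus strand: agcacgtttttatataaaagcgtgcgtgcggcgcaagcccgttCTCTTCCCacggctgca
Rpl22, chr4:152324396-152324455, plus strand: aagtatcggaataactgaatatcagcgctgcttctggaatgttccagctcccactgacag

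Rps15a has its run at the annotated start, and in Rpl28 and Rps6 a run crosses it. In Rpl12 and Rpl22l1 a run begins a few bases downstream, and in Rps9 it begins upstream and runs across the start. In neither RefSeq window of Rpl22 did a run of 5 lie so close. The same holds for the windows of Rps3a1, Rps25, Rps13, Rpl7l1 and Rplp0, which are also named below and not shown. The windows shown do not stand for all members, whose shares follow. A window was found for 53 of the 64 genes (63 windows). A run of at least 5 bases of C and T, beginning with C and read on the strand of the gene, was read from the start base itself in 9 of them (14.3%), against 2.51% of all 32851 windows. Within 5 bases of the start such a run was found in 27 (42.9%), against 18.3% of all windows. Of the 73 windows of mitochondrial ribosomal proteins, 0 had a run at the start and 17 (23.3%) had one within 5 bases. A match describes these letters and shows no regulation.

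Of the 94 probes, 82 of 57 genes passed the detection filter, a detection p under 0.05 on at least 4 arrays, and 72 probes were detected on all 24 arrays. The genes without a passing probe were Rpl6, Rpl14, Rpl17, Rps20, Rps23 and the copies Rpl3l and Rpl39l. For the 55 genes detected on all arrays the brightest probe had a mean log2 intensity of 5.43 to 14.58, with a median of 12.19. Each array detected 15316 to 17463 probes, and the ribosomal protein probes made up 2.35% to 3.16% of its summed intensity. Ribosomal protein genes have many processed copies in the mouse genome, and the probe sequences were not used here, so signal shared with such copies is uncertain.

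The arrays lay on 4 slides of 6. The first slide held the lean sham arrays and 2 obese sham arrays, the second the other obese sham arrays with the lean 70% group, the third the obese 70% group with 2 lean 80% arrays, and the fourth the other lean 80% arrays with the obese 80% group. No group joins the first pair of slides to the second pair. Slide pair and group cannot be told apart for lean 80%, obese 70% and obese 80% against sham, for obese against lean after 70%, for 80% against 70% in lean livers, or for the interaction of diet with 70% hepatectomy.

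The mean level of the ribosomal protein messages was lower in obese than in lean livers without resection. The mean log2 intensity of the 72 probes detected on all arrays was 11.09 ± 0.095 (SD, n = 4) in lean sham and 10.81 ± 0.031 in obese sham livers. After 70% hepatectomy it was 11.18 ± 0.027 in lean and 10.94 ± 0.054 in obese livers, and after 80% hepatectomy 11.15 ± 0.027 and 11.05 ± 0.038. The lowest lean sham array stood at 10.98 and the highest obese sham array at 10.85, so these groups did not overlap. The obese arrays ranged up to 11.01 after 70% and from 11.02 to 11.11 after 80% hepatectomy, and the lean arrays of those groups began at 11.15 and 11.11.

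**Figure D1:**
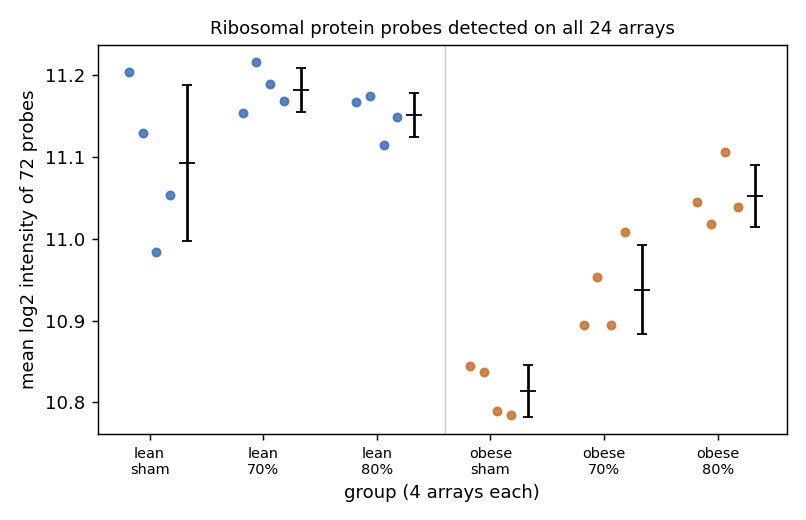
Mean log2 intensity of the 72 ribosomal protein probes detected on all arrays (vertical axis) for each of the 24 arrays (points), by group, with the group mean and SD (bars, n = 4). The obese sham arrays, at 10.78 to 10.85, lie below all lean arrays, which start at 10.98.

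After sham surgery, 33 of the 82 ribosomal protein probes were lower in obese than in lean livers and 1 was higher, at an adjusted p under 0.05 from limma with Benjamini-Hochberg adjustment over all 19631 passing probes. Of all passing probes 5.09% were lower and 5.43% higher. The groups did not overlap, with obese lower, for 39 of the 82 probes, against 9.2% of all probes. The median difference over the 72 probes was log2 -0.27, beside -0.01 over the 11721 probes detected on all arrays, and 68 of the 72 were negative. By subunit, 14 of 41 large-subunit and 15 of 28 small-subunit probes were lower. Taking 1 probe per gene, 24 of the 57 genes were lower and 0 higher by limma, and at an unadjusted p under 0.05 the counts were 36 and 0.

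Rpl12, which with Rplp0 forms the base of the stalk that recruits elongation factors, had the lowest difference among the genes. It read log2 11.76, 11.73, 11.45 and 11.67 in lean sham and 10.81, 10.91, 10.92 and 10.90 in obese sham livers. Every obese value lay below every lean value, a level 1.70-fold lower (log2 -0.77, SE 0.10, adjusted p = 6.7e-06). Rpl28, a large-subunit protein, read 12.77, 12.78, 12.78 and 12.73 in lean and 12.35, 12.22, 12.06 and 12.09 in obese sham livers (log2 -0.58, SE 0.09, adjusted p = 0.000152). The lean arrays lay within 0.05 of each other and all 4 obese arrays were lower, while a second probe detected on 7 of the 24 arrays did not pass (-0.21).

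Rps9, which sits near the entry of the messenger channel, read 12.61 to 12.73 in lean and 11.97 to 12.38 in obese sham livers (log2 -0.51, SE 0.09, adjusted p = 0.000519). Rpl3, whose protein reaches towards the peptidyl transferase centre, read 13.24 to 13.56 and 12.74 to 12.97 (log2 -0.49, SE 0.10, adjusted p = 0.00122). Neither gene's groups overlapped. Rps26 at the messenger exit (log2 -0.48), Rps10 (-0.44), Rps13 (-0.42), Rpl10a (-0.40), Rps24 (-0.40) and Rps3 (-0.39) were lower as well, at adjusted p of 0.0122 or less, although the second probes of Rps13 (-0.27) and Rps3 (-0.23) and 1 of the 3 probes of Rps24 (-0.06) did not pass. Rps6, the substrate of the S6 kinases, was lower by a smaller step (log2 -0.31, adjusted p = 0.0242), with 11.65, 11.95, 11.89 and 11.87 in lean and 11.56, 11.66, 11.39 and 11.51 in obese sham livers, and the second obese array stood just above the first lean one. That call was lost without lean sham array 2, 3 or 4 or obese sham array 3 or 4, at log2 -0.26 to -0.30.

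The stalk proteins divided by call. Rplp0, read by a dim probe, stood at log2 7.01, 6.75, 6.55 and 6.54 in lean and 6.27, 6.23, 6.31 and 6.01 in obese sham livers (log2 -0.51, SE 0.14, adjusted p = 0.0218), and the groups did not overlap. Another probe of the gene, detected on 13 arrays, read 0.01 and did not pass. The call was lost without lean sham array 1 (-0.41), lean sham array 2 (-0.50) or obese sham array 4 (-0.44). Rplp1 (log2 -0.28) and Rplp2 (-0.30) did not pass, and their groups overlapped. The exception in the other direction was the second, dimmer probe of Rps19, higher by log2 0.99 in obese sham livers (adjusted p = 6.67e-05), while the brightest probe of that gene was lower (-0.28), so the 2 probes disagree, as they also did in obese against lean livers after 70% and in obese 80% against sham.

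Within the first slide, which held 4 lean and 2 obese sham arrays, the median difference of the 72 probes was log2 -0.24, and 68 of the 72 were negative. With slide as a fixed term 15 probes were lower and 1 higher, and Rpl12 (-0.80), Rpl28 (-0.48), Rps9 (-0.35) and Rpl3 (-0.53) passed, while Rplp0 (-0.46, adjusted p = 0.133), Rps4x (-0.27, adjusted p = 0.147) and Rps6 (-0.23, adjusted p = 0.273) did not. Without lean sham array 1, the brightest of its group in these probes, 22 probes were called, and likewise without obese sham array 4. Hepatocyte markers summed to 175100 to 183600 normalized intensity units in lean sham and 165600 to 184500 in obese sham livers, and 0 of 8 passed in limma, with 1 at an unadjusted p under 0.05. Stellate cell markers summed to 2755 to 3062 and 3820 to 4376, with 1 of 5 passing markers higher, and their part in the result was not tested.

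**Figure D2:**
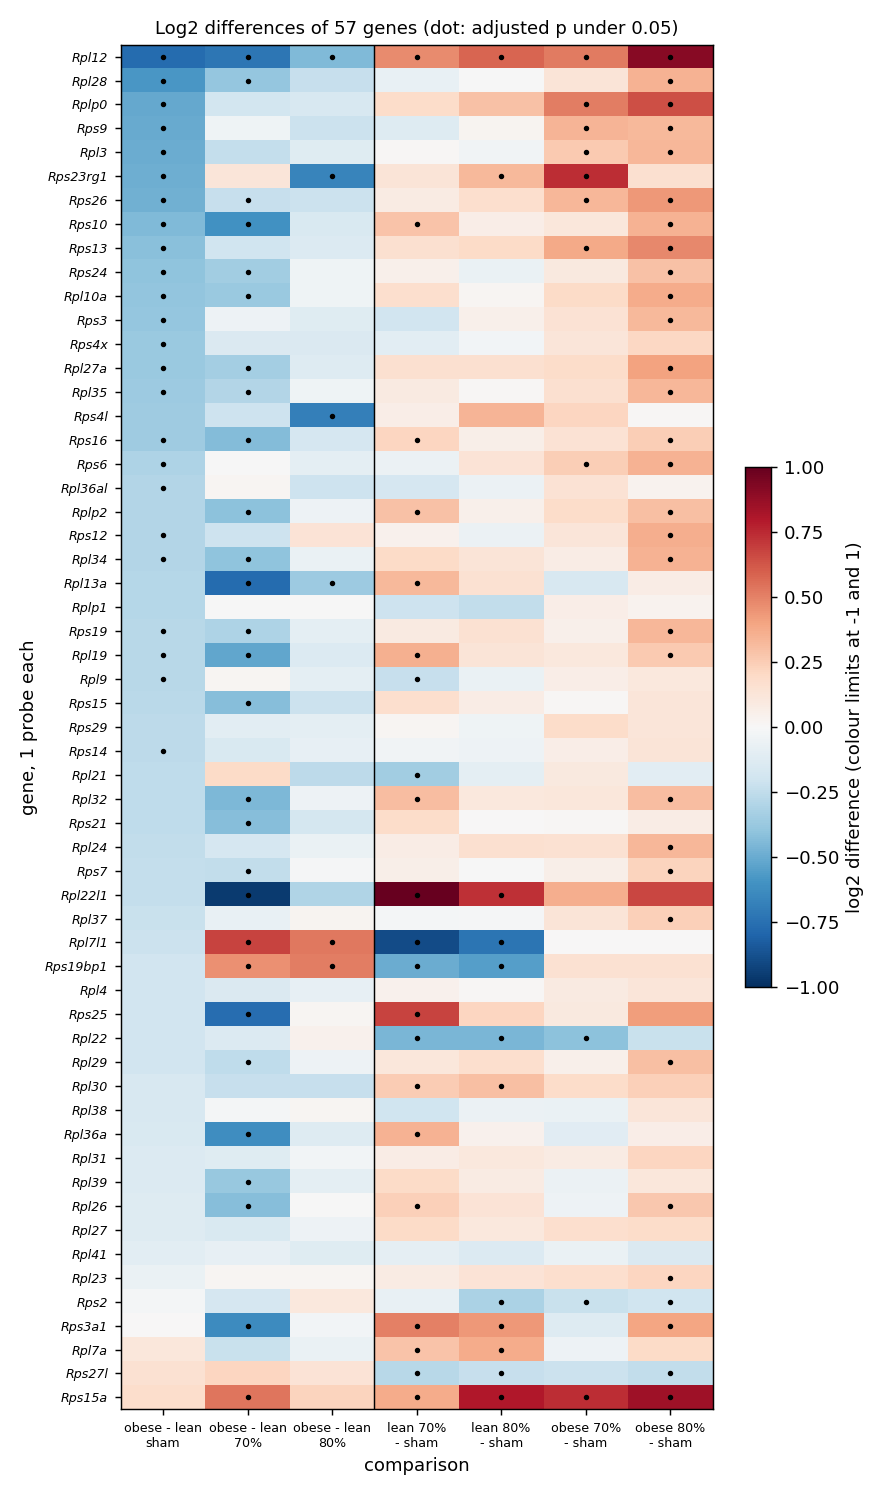
Log2 differences (colour, limits at -1 and 1) of 57 ribosomal protein genes, 1 probe each, in 3 comparisons of obese with lean livers (left of the line) and 4 of hepatectomy with sham (right), ordered by the sham diet difference, with dots at an adjusted p under 0.05. The first column is negative for 53 of the 57 genes, and Rpl12, at its end, is also among the largest rises after resection.

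After 70% hepatectomy, 33 of the 82 probes were lower in obese than in lean livers and 5 were higher, against 14.8% and 16.1% of all passing probes. The median over the 72 probes was log2 -0.24, beside 0.03 over all probes detected on all arrays. The largest called fall was that of the copy Rpl22l1, which read 7.56, 8.21, 7.69 and 8.31 in lean and 6.94, 6.97, 6.82 and 7.21 in obese livers (log2 -0.96, SE 0.28, adjusted p = 0.0124), with no overlap. With slide as a random block it was -0.78 and did not pass. Among genes of the core ribosome, Rpl13a, also known as a subunit of an interferon-responsive translation inhibitor complex, was lower by log2 0.77 in size (-0.77, SE 0.12, adjusted p = 4.76e-05). It read 8.93, 9.32, 9.28 and 8.96 in lean and 8.43, 8.39, 8.21 and 8.38 in obese livers, with no overlap. Rps25, needed for some internal ribosome entry sites, was at 11.71 to 11.90 in lean and 10.96 to 11.17 in obese livers (log2 -0.76, SE 0.20, adjusted p = 0.00643). Rpl12 (-0.72), Rps3a1 (-0.63), Rpl36a (-0.62), Rps10 (-0.61) and Rpl19 (-0.52) followed, and none of these groups overlapped. Rps15a (0.54), Rps19bp1 (0.46) and Rpl7l1 (0.68) were higher in obese livers, and the second probe of Rpl7l1 was lower (-0.37). The call of Rps19bp1 was lost without lean 70% array 2 (0.26) or obese 70% array 1 (0.38) or 4 (0.45).

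Macrophage markers were lower in obese than in lean livers after 70% hepatectomy for 5 of 6 passing markers. Their sums were 1562 to 2020 against 1543 to 4376, with Cd5l detected on no array. Hepatocyte markers summed to 167400 to 176900 in obese and 148400 to 160600 in lean livers, with no overlap. Of 8 hepatocyte markers 3 were higher and 1 lower in obese livers. The part of either cell type in the lower ribosomal protein levels was not tested. The slides of these groups differ, as given above.

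After 80% hepatectomy the diet groups lay closer. Here 6 probes were lower and 3 higher in obese livers, against 9.27% and 10.4% of all passing probes. The shares called do not set the members apart. The groups did not overlap for 17 of the 82 probes with obese lower and for 4 with obese higher. Of all 19631 passing probes this held for 1735 and 1966. Of the 72 probes detected on all arrays 56 were negative. The median over the 72 probes was log2 -0.09, beside 0.00 over all probes. Rpl12 remained lower, at 12.26, 12.37, 12.17 and 12.12 in lean and 11.88, 11.80, 11.84 and 11.65 in obese livers (log2 -0.44, SE 0.10, adjusted p = 0.00225). Rps4l, annotated as a transcribed pseudogene (-0.68), and the retroposed Rps23rg1 (-0.66) were also lower. Rps23rg1 was read by a dim probe, and its second probe read 0.01. Rpl7l1 (0.52, adjusted p = 0.00402) and Rps19bp1 (0.51, adjusted p = 0.0235) were higher, and neither passed with slide as a fixed term (0.33 and 0.39). The call of Rps19bp1 was also lost without lean 80% array 1 (0.37) or obese 80% array 3 (0.48). The call of Rps4l was lost without lean 80% array 2 (-0.57). Rpl13a was lower as well (log2 -0.36, adjusted p = 0.0372), a call lost without lean 80% array 1 or 2 or obese 80% array 1, 2 or 4, at -0.24 to -0.38. The count depended on scaling. With arrays scaled by their upper quartile in place of quantile normalization, 41 probes were lower and 3 higher and the median was -0.30. The median of all passing probes itself moved by log2 -0.09 under that scaling. Within the fourth slide, with 4 obese and 2 lean arrays, the median was -0.07 and 47 of 72 probes were negative. With slide as a fixed term 3 probes were called, without Rpl12 (-0.35, adjusted p = 0.0526). Neutrophil markers were higher in obese livers for 2 of 4 passing markers, with sums of 3476 to 5431 against 1072 to 2861. Their part in the result was not tested.

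In lean livers, 21 ribosomal protein probes were higher and 9 lower after 70% hepatectomy, against 20.2% and 23.6% of all passing probes. In either direction 43.8% of all passing probes were called. The median over the 72 probes was log2 0.07, beside -0.04 over all probes. Rpl12 rose to 11.94, 12.15, 12.26 and 12.16 from the lean sham levels given above (log2 0.47, SE 0.10, adjusted p = 0.000255). Rps3a1, a small-subunit protein, rose from 10.27, 10.17, 10.23 and 10.03 to 10.59, 10.55, 10.79 and 10.80, with no overlap (log2 0.51, SE 0.13, adjusted p = 0.00313). Rps25 rose as well (log2 0.67, adjusted p = 0.00918), from lean sham arrays that spread from 10.64 to 11.70 to arrays at 11.71 to 11.90, a call lost without lean sham array 3 (0.50). Among those lower was Rpl21 (log2 -0.35, adjusted p = 0.00746), a large-subunit gene whose brightest passing probe was near log2 6 and whose other probes (-0.34 and -0.01) did not pass. Leaving out lean sham array 4 gave 20 calls in place of 30. Stellate cell markers were higher for 5 of 5 in this comparison, with sums of 4046 to 6582 against 2755 to 3062. Hepatocyte markers were lower for 4 of 8 and higher for 2. Their sums were 148400 to 160600 against 175100 to 183600 in lean sham, with no overlap. The part of either cell type in the result was not tested.

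This is the comparison of resection with sham that slides allow to be adjusted. With slide as a fixed term, 2 probes were higher and 2 lower, and among the genes above Rpl12 (0.42, adjusted p = 0.0745), Rps25 (0.51, adjusted p = 0.384), Rpl21 (-0.14, adjusted p = 0.646) and Rps3a1, which turned to -0.04 (adjusted p = 0.904), did not pass.

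After 80% hepatectomy in lean livers 13 probes were higher and 6 lower, against 24% and 28% of all passing probes, with a median of log2 0.04 beside -0.04. Rpl12 reached 12.12 to 12.37 (log2 0.58, SE 0.10, adjusted p = 1.9e-05) and Rps3a1 rose by log2 0.43 (adjusted p = 0.00858). Rpl7a, a large-subunit protein, rose from 9.78, 9.81, 9.93 and 9.96 to 10.04, 10.29, 10.25 and 10.40 (log2 0.37, SE 0.09, adjusted p = 0.00182), with no overlap. Rps2, a small-subunit protein near the messenger entry, fell by 0.32 on the log2 scale (adjusted p = 0.00193), from 14.27 to 14.53 in sham to 14.02 to 14.14 in resected livers, while its second probe (-0.15) did not pass. Rps2 is among the brightest probes, and under upper-quartile scaling its difference was 0.06. That scaling gave 37 probes higher and 5 lower and a median of 0.26, and it moved the median of all passing probes by 0.05.

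In obese livers 80% hepatectomy was followed by higher levels of a larger share of the ribosomal protein probes than of all probes, and 70% hepatectomy was not. After 70% hepatectomy 13 probes were higher and 4 lower, against 20.5% and 23.6% of all passing probes, with a median of log2 0.11 beside -0.04. After 80% hepatectomy 38 of the 82 were higher and 3 lower, against 22.6% and 27%, with a median of 0.25 beside -0.05. Both comparisons share the 4 obese sham arrays with the diet comparison above, in which those arrays were low, so the differences are not independent of each other. By subunit, 17 of 41 large-subunit and 18 of 28 small-subunit probes were higher after 80% hepatectomy.

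Rpl12 stood at 10.81 to 10.92 in obese sham, at 11.34, 11.39, 11.30 and 11.58 after 70% and at 11.88, 11.80, 11.84 and 11.65 after 80% hepatectomy. The 3 groups did not overlap, and the rise was log2 0.52 after 70% (SE 0.10, adjusted p = 0.000107) and 0.91 or 1.88-fold after 80% (SE 0.10, adjusted p = 2.84e-08). Rps13, a small-subunit protein, read 11.26, 11.11, 11.02 and 10.86 in sham, 11.33 to 11.59 after 70% (log2 0.38, adjusted p = 0.00254) and 11.48 to 11.63 after 80% (log2 0.48, adjusted p = 0.00021). Rps26 rose by log2 0.33 and 0.43, Rps9 by 0.34 and 0.32, and Rplp0 by 0.51 and 0.64. Rps23rg1, read by a dim probe, rose after 70% from 4.90 to 5.03 in sham to 5.63 to 5.74 (log2 0.74, adjusted p = 1.59e-05). Its second probe, also dim and detected on 5 arrays, fell (-0.31). The probes were called in opposite directions in lean 80% livers as well (0.33 and -0.75). Rps6 rose from 11.39 to 11.66 in sham to 11.70 to 11.90 after 70% (log2 0.25, adjusted p = 0.0251) and 11.78 to 12.00 after 80% (log2 0.35, adjusted p = 0.00215). The first of these calls was lost without obese sham array 3 (0.20) or 4 (0.24) or obese 70% array 4 (0.21).

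Rpl3 rose by log2 0.26 after 70% (adjusted p = 0.0304) and 0.33 after 80% (adjusted p = 0.00619). The smaller change lost its call without obese sham array 1 or 3 or obese 70% array 2, 3 or 4, at 0.22 to 0.27. Rpl10a (0.37), Rpl27a (0.40), Rpl34 (0.35), Rpl28 (0.35), Rps10 (0.35) and Rps12 (0.37) were called after 80% and not after 70% hepatectomy in obese livers. Rps2 fell by 0.22 after 70% and by 0.20 after 80% on the log2 scale, its second probe did not pass (0.00 and -0.04), and under upper-quartile scaling its values were 0.05 and 0.02. The first Rps2 call was lost without obese sham array 1, 3 or 4 or obese 70% array 3, and the second without any of 15 single arrays, at -0.18 to -0.20. Upper-quartile scaling gave 23 higher and 3 lower after 70%, and 40 higher and 1 lower after 80%. It moved the median of all passing probes by log2 0.0001 and 0.0275 in these comparisons.

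**Figure D3:**
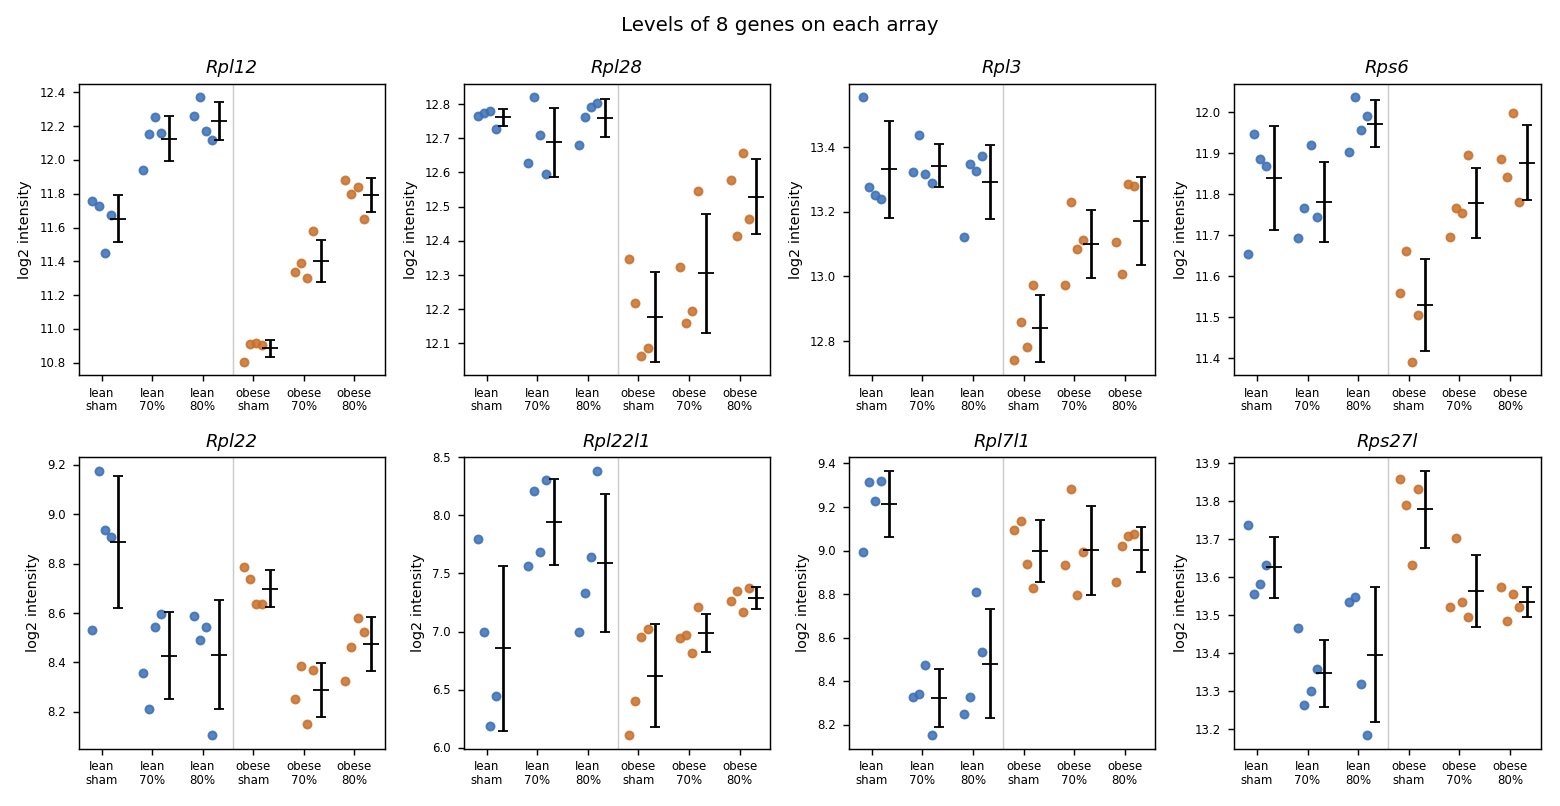
Log2 intensity (vertical axes) on each array (points) of 8 ribosomal protein genes by group, with the group mean and SD (bars, n = 4). Rpl12 is lowest in the obese sham group and higher in every hepatectomy group of its diet, Rpl22 is lower in both lean resected groups and after 70% in obese livers, Rpl22l1 is higher in lean resected livers, and Rpl7l1 is lower in both lean resected groups than in lean sham.

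Directly compared, few of these probes were called between 80% and 70% hepatectomy. In lean livers 3 probes were higher and 3 lower, against 8.2% and 9.32% of all passing probes, and the counts ran from 1 to 8 as single arrays were left out, with 1 to 3 calls without lean 70% array 1, 2 or 3 or lean 80% array 1 or 3. Rps15a was higher after 80% (log2 0.43, adjusted p = 0.0401) and Rps2 lower (-0.24, adjusted p = 0.0372), but the second probe of Rps2 was at 0.12. The call of Rps15a was lost without lean 70% array 1 or 2 or lean 80% array 1 or 3, at 0.34 to 0.42, and that of Rps2 without lean 70% array 1 or 2 or lean 80% array 2, 3 or 4, at -0.21 to -0.25. Macrophage markers were lower after 80% for 6 of 6, with sums of 1464 to 1922 against 1543 to 4376. Hepatocyte markers were higher for 3 of 8 and lower for 1, with sums of 165200 to 171400 against 148400 to 160600. The part of either cell type in the result was not tested. In obese livers 6 were higher and 1 lower, against 3.82% and 2.87%, with a median of log2 0.11 beside -0.03 over all probes. Of the 72 probes detected on all arrays 59 were positive. The groups did not overlap for 21 of the 82 probes with 80% higher and for 1 with 80% lower. Of all 19631 passing probes this held for 1323 and 1462. Leaving out single arrays gave 1 to 9 calls, with 1 to 4 without obese 70% array 1, 2 or 3 or obese 80% array 1, 3 or 4, and with slide as a fixed term 0 probes were called by limma and 12 had an unadjusted p under 0.05. Rps3a1 had the largest called rise, from 10.21, 10.09, 10.02 and 9.91 after 70% to 10.45, 10.62, 10.62 and 10.64 after 80% (log2 0.52, SE 0.13, adjusted p = 0.0208), a call lost without obese 70% array 3 or obese 80% array 3 or 4, at 0.50 to 0.51. Rpl26, a large-subunit protein that also binds p53 mRNA, was higher by 0.32 (adjusted p = 0.0386), a call lost without obese 70% array 1, 2 or 3 or any obese 80% array, at 0.28 to 0.34. Rpl12 was higher by log2 0.39 after 80% than after 70% in obese livers (adjusted p = 0.0169), a call lost without obese 70% array 1 or 3 or obese 80% array 1 or 3, at 0.36 to 0.37. Rps23rg1 was lower by log2 0.58 in size (-0.58, adjusted p = 0.00499) on a dim probe. It read 5.63 to 5.74 after 70% and 4.94 to 5.35 after 80%, while its second probe did not pass (0.18). Neutrophil markers were higher after 80% than after 70% in obese livers for 4 of 4 passing markers. Their sums were 3476 to 5431 against 1112 to 2005, and their part in the result was not tested.

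A change after resection that differed with diet was called for few members. For 70% hepatectomy the interaction of diet and surgery was positive for 7 probes and negative for 2, against 8.76% and 9.14% of all passing probes. For 80% it was positive for 5 and negative for 1, against 4.78% and 4.28%. The median interaction over the 72 probes was log2 0.05 at 70% and 0.18 at 80%, beside 0.04 and 0.01 over all probes detected on all arrays. The count of 6 at 80% was 2 or 3 without lean sham array 2, obese sham array 2, 3 or 4, or obese 80% array 1, 3 or 4. At 80% 0 probes were called by limma with slide as a fixed term and 12 had an unadjusted p under 0.05, with a median of 0.19. Under upper-quartile scaling the median at 80% was 0.03, and the median of all passing probes moved by -0.02.

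The duplicated genes are described 1 by 1. Rpl22, an RNA-binding large-subunit protein, fell while its copy Rpl22l1, which Rpl22 represses in mouse cells, rose. Rpl22 read 8.53, 9.18, 8.93 and 8.91 in lean sham and 8.36, 8.21, 8.54 and 8.60 after 70% hepatectomy (log2 -0.46, SE 0.12, adjusted p = 0.00391). The lowest sham array lay among the resected ones. It fell by 0.46 after 80% in lean livers and by 0.41 after 70% in obese livers on the log2 scale, and the obese 80% difference was -0.23 and did not pass. Rpl22l1 read 7.79, 7.0, 6.19 and 6.44 in lean sham, 7.56, 8.21, 7.69 and 8.31 after 70% and 7.0, 7.33, 7.64 and 8.39 after 80% hepatectomy. Its lean sham arrays were widely spread, and the first of them overlapped the resected groups.

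The rise of Rpl22l1 was log2 1.09 after 70% (SE 0.28, adjusted p = 0.00285) and 0.73 after 80% (SE 0.28, adjusted p = 0.0327) in lean livers. The second call was lost without lean sham array 3 (0.51) or 4 (0.60) or lean 80% array 3 (0.72) or 4 (0.47). In obese livers Rpl22l1 went from 6.11 to 7.02 in sham to 6.82 to 7.21 after 70% and 7.16 to 7.38 after 80%, differences of 0.36 and 0.67 that did not pass. With slide as a fixed term, the lean 70% difference was -0.33 for Rpl22 (adjusted p = 0.312) and 0.35 for Rpl22l1 (adjusted p = 0.633).

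Rpl7l1, a copy of Rpl7 that acts in assembly of the large subunit, fell in lean livers. It read 8.99, 9.31, 9.23 and 9.32 in lean sham, 8.33, 8.34, 8.48 and 8.15 after 70% and 8.25, 8.33, 8.81 and 8.53 after 80% hepatectomy. Both lean resected groups lay wholly below sham, with falls of 0.89 (adjusted p = 2.09e-06) and 0.73 (adjusted p = 2.26e-05) on the log2 scale. In obese livers it read 8.83 to 9.13 in sham, 8.80 to 9.28 after 70% and 8.85 to 9.07 after 80%, differences of 0.00 and 0.01. The interactions were log2 0.89 (SE 0.17, adjusted p = 0.00111) and 0.74 (SE 0.17, adjusted p = 0.00843), and with slide as a fixed term the lean 70% fall was 0.66 in size (-0.66, adjusted p = 0.0145) and the 80% interaction was 0.43 (adjusted p = 0.241). These values are of the brightest probe. The second probe, also detected on all 24 arrays, did not pass in lean livers, at 0.25 after 70% and -0.17 after 80%, and its interactions were -0.38 and 0.42, so the 2 probes disagree in sign at 70%.

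Rps19bp1, which encodes a partner of Rps19 and of the deacetylase SIRT1, was lower in lean livers by log2 differences of -0.50 after 70% (adjusted p = 0.0119) and -0.55 after 80% (adjusted p = 0.00473), on a dim probe that 1 lean 70% array did not detect. Without that array, lean 70% array 2, the first difference was -0.30 and did not pass. Rps27l, a p53-inducible copy of Rps27, read 13.56 to 13.74 in lean sham and 13.26 to 13.47 after 70% hepatectomy, a fall of 0.28 on the log2 scale (adjusted p = 0.0155). The fall was 0.23 after 80% in lean livers (adjusted p = 0.0386) and 0.24 after 80% in obese livers (adjusted p = 0.0299). Under upper-quartile scaling the 3 values were -0.13, 0.08 and -0.09, and none passed as a fall. Calls of Rps27l were lost without lean sham array 1 at 70% (-0.24), without lean sham array 1 or 4 or lean 80% array 3 or 4 at 80% (-0.16 to -0.23), and without any of 5 obese arrays (-0.22 to -0.24).

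Rps15a was read near the detection limit, on 2 of 4 lean sham arrays and on all arrays of the other groups. It rose in each hepatectomy comparison, by log2 0.37 and 0.80 in lean and 0.74 and 0.85 in obese livers. Without lean sham array 1 or 3, or lean 70% array 2, 3 or 4, the smallest of these was 0.29 to 0.38 and did not pass. Of the other pairs, Rps4x and Rpl36al were lower in obese sham livers (log2 -0.37 and -0.30), and the second call was lost without lean sham array 1, 2 or 4 or obese sham array 3 or 4, at -0.22 to -0.31. Rpl39 differed by diet after 70% hepatectomy (log2 -0.38, adjusted p = 0.00295).

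The mitochondrial ribosomal proteins and the respiratory chain subunits, were read on the same arrays. In obese against lean sham livers 2 of 112 mitochondrial ribosomal protein probes were higher and 2 lower, against 5.43% and 5.09% of all passing probes. Their median was log2 -0.03 over those detected on all arrays. Of 93 respiratory chain probes 2 were higher and 0 lower at an adjusted p under 0.05 from limma, with a median of 0.06, and 15 were higher and 3 lower at an unadjusted p under 0.05. After 80% hepatectomy in obese livers 6 mitochondrial ribosomal protein probes were higher and 51 lower (median -0.20), where the cytosolic proteins had 38 higher and 3 lower. Of all passing probes 22.6% were higher and 27% lower there. In lean livers after 70% hepatectomy the mitochondrial family had 7 higher and 56 lower (median -0.25), against 20.2% and 23.6% of all passing probes. The difference between families was not tested.

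**Figure D4:**
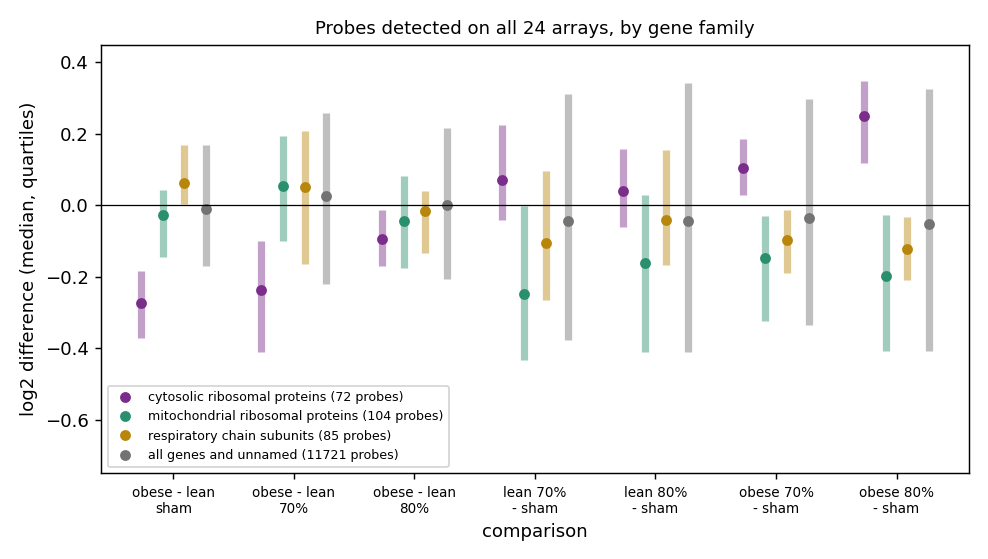
Median log2 difference (points) and quartiles (bars) in 7 comparisons for cytosolic ribosomal proteins, mitochondrial ribosomal proteins, respiratory chain subunits and all probes, each limited to probes detected on all 24 arrays. The cytosolic median is lowest in the 2 comparisons of obese with lean livers after sham and 70% hepatectomy and highest in obese 80% against sham, at 0.25.

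Translation factors whose messages carry TOP motifs were counted beside them. Of 15 passing genes 3 were lower and 1 higher in obese sham livers, against 5.09% and 5.43% of all passing probes. The lower ones were the elongation factor subunits Eef1g (log2 -0.38) and Eef1d (-0.35) and the initiation factor Eif3f (-0.33). In obese against lean livers after 70% hepatectomy 6 were lower, among them Hnrnpa1 (-0.87) and Eif4b (-0.67), and 0 were higher. The shares of all passing probes were 14.8% lower and 16.1% higher. After resection 5 rose and 1 fell in lean 70%, and 7 rose and 0 fell in lean 80% livers. In obese livers 1 rose and 2 fell after 70%, and 5 rose and 1 fell after 80%. Of all passing probes 20.2% to 24% rose and 23.6% to 28% fell in these comparisons. In obese 80% livers the nucleolar Npm1 rose by log2 0.82 and the poly(A)-binding protein Pabpc1 by 0.74. Rpsa, a ribosomal protein outside the symbol rule, fell there by 0.40 on the log2 scale.

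Genes of ribosomal RNA synthesis and processing rose after resection in part. Of 13 passing genes 7 rose and 0 fell in each lean comparison, and 9 rose and 1 fell in each obese one. Of all passing probes 20.2% to 24% rose and 23.6% to 28% fell in these comparisons. The box C/D particle protein Nop58 rose by log2 1.52 and 1.98 in lean and by 2.15 and 2.21 in obese livers, and Nop56 by 0.52, 0.60, 1.01 and 1.55. Obese and lean sham livers differed in 0 of these 13 genes by limma at an adjusted p under 0.05, and in 0 of 13 genes of the S6 kinase and mTORC1 list, with 3 and 2 genes at an unadjusted p under 0.05. In the S6 kinase and mTORC1 list, after obese 80% hepatectomy, the translation repressor Eif4ebp1 rose by log2 1.67 and the mTOR inhibitor Ddit4 by 1.17. The mTOR-binding Deptor fell by 1.39. In all 4 genes rose and 5 fell, against 22.6% and 27% of all passing probes.

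The 4 passing genes of ribosomal protein surveillance and p53 rose in lean 70% and obese 80% livers, 3 rose in lean 80% and 2 in obese 70%. Of all passing probes 20.2% to 24% rose in these comparisons. Grwd1, the chaperone of Rpl3, rose by log2 0.62, 0.80, 1.01 and 1.44 in the order lean 70%, lean 80%, obese 70% and obese 80%, and was the 1 of 4 ribosomal protein chaperones that passed. Neutrophil markers rose in all 4 comparisons, 4 of 4 passing, with Ngp detected on no array. Their sums were 163.4 to 266.8 in sham livers and 1072 to 3814 in lean resected livers. They were 1112 to 2005 in obese 70% and 3476 to 5431 in obese 80% livers. Stellate cell markers rose for 5 of 5 in lean 70%, 3 in lean 80% and 2 in each obese comparison. Of the cholangiocyte markers Epcam and Krt19 were detected on no array, and 1 of the 2 passing markers rose in all 4 comparisons, with sums of 342.1 to 501.2 in sham and 524.5 to 3528 in resected livers, and B cell and T cell markers were on all 4 arrays of no group. The part of these cells in the ribosomal protein changes was not tested.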

How the data were processed

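Biotin-labelled cRNA from liver was hybridised to 24 arrays, per the labels. The deposited table holds linear bead intensity values without normalization between arrays, and a detection score. Per the file headers this score is a p-value, but its values climb towards 1 in the brightest probes, and its complement served as detection p. The authors' log2 values were recomputed from these intensities by quantile normalization and centring on probe medians, to within 0.00957, and were not tested. The image software is not given in the sources used here.

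Intensities were corrected in limma 3.58.1 (R 4.3.3) by normexp with background inferred from detection p, offset 16, then quantile-normalized and taken to log2. Probes with detection p under 0.05 on at least 4 arrays were kept. One model with 6 group means (18 residual degrees of freedom) gave 11 contrasts, two-sided, with Benjamini-Hochberg adjustment over 19631 probes. A probe is called at an adjusted p under 0.05, and "rose", "fell", "higher" and "lower" of single probes refer to calls. Medians have no test. For a gene, the probe with the highest mean stands. Named genes are the 5 largest rises and 5 largest falls per comparison (3 for interactions and resection sizes), the paralogs with their parents, the stalk, Rps6 and Rps19bp1; others illustrate counts and were chosen after their values were seen. Members, lists and rules were chosen with earlier results of these data known. The fit was tested on simulated data. Symbols and start positions come from the platform table and RefSeq. With 4 arrays a group, the number of arrays limits precision. Arrays were not paired by replicate number in the main model. Of 60 same-numbered pairs, 8 had deviations correlated above 0.1 (range -0.19 to 0.16). Differently numbered pairs were not compared, so pairing was not tested. Alternatives were other background, scaling, filters, genes as the unit, slide terms, replicate blocks and single arrays left out.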

Additional observations from a re-analysis of the deposited data

Results flagged for a closer look

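Of 186 groups of 4 arrays examined, for named genes and for the array mean of the members, 10 had 1 array standing apart from the others. Chance alone marks about 1 in 20. Rps25 read log2 10.53 on obese 80% array 1 against 11.59 to 11.78 on the others, and Rps3a1 read 10.45 on the same array against 10.62 to 10.64. Rps12 read 13.39 on obese 80% array 2 against 13.66 to 13.70. In obese sham livers Rpl12 read 10.81 on array 1 against 10.90 to 10.92, and in obese 70% livers Rps2 read 14.12 on array 3 against 14.17. In lean 70% livers Rpl36a read 11.72 on array 4 and Rpl7a 10.07 on array 1. In lean 80% livers Rps19bp1 read 5.05 on array 1 and Rps4l 8.22 on array 2. Rpl3 read 13.56 on lean sham array 1, above the 13.24 to 13.28 of the others.

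In 7 of 57 genes the change after 70% hepatectomy differed between diets by the interaction term of limma, with 5 positive and 2 negative. Of all passing probes 8.76% were positive and 9.14% negative, so the count does not set the members apart. Slide pair and group cannot be told apart for this interaction. It was log2 0.89 for Rpl7l1, 0.65 for Rps19bp1, 0.61 for Rps23rg1, 0.47 for Rps9 and 0.45 for Rpl21, where the obese change was the higher one, and -0.46 for Rpl36a and -0.63 for Rps3a1, where the lean change was. At 80% the interaction was 0.74 for Rpl7l1, 0.70 for Rps19bp1, 0.43 for Rps12 and 0.36 for Rpl10a. These were 4 of 57 genes, with 0 negative, against 4.78% positive and 4.28% negative of all passing probes. As single arrays of the 24 were left out, the interaction lost its call without 12 of them for Rpl36a and 12 for Rps19bp1 at 70%, and without 16 for Rps19bp1 and 10 for Rps12 at 80%. The 80% interactions of Rpl7l1, Rps19bp1 and Rps12 were 0.43, 0.57 and 0.49 with slide as a fixed term, and none passed. The second probe of Rpl7l1 had interactions of -0.38 and 0.42, and Rps23rg1 was read by a dim probe. At 70% only 1 of 3 Rpl21 probes was called, the lowest reading -0.01, and the second probe of Rps9 (0.17) was not called. The interaction of Rps3a1 at 70% lost its call without obese sham array 3 (-0.52) or 4 (-0.56). The interactions of Rps19bp1 and Rpl36a lost their calls with the replicate block, and the 2 obese sham arrays on the second slide had Rps3a1 levels of 10.51 and 10.40 against 9.87 and 9.95 on the first.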

How the results depend on the processing

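The lower ribosomal protein levels in obese sham livers and their rise in obese livers after 80% hepatectomy kept the sign of their median under every alternative run, and counts without the filter on dim probes or with probes detected on all arrays stayed within 1.5 times. With no background correction the calls numbered 14 for obese against lean at 80%, 10 and 13 for 80% against 70% in lean and obese livers, and 13 for the interaction at 80%, and with an offset of 50 they were 14, 10, 13 and 12, with 14 for the interaction at 70%. Upper-quartile scaling moved the median of all probes in obese against lean livers by log2 -0.06 after sham, -0.11 at 70% and -0.09 at 80%. Against sham it moved that median by 0.05 in lean 70% and 0.05 in lean 80% livers. Under it the ribosomal protein medians were 0.16 for lean 70%, 0.26 for lean 80% and 0.20 for obese 70% against sham, -0.30 for obese against lean at 80%, 0.084 for lean 80% against 70% (from -0.036) and 0.029 for the interaction at 80%. The calls were 42 for lean 80%, 26 for obese 70%, 44 for obese against lean at 80%, 4 for obese 80% against 70% and 3 for the interaction at 80%. Rps2 turned to 0.060, 0.048 and 0.017 in lean 80%, obese 70% and obese 80% livers, and in lean 80% livers Rps27l turned to 0.080 and Rpl3 to 0.25. Testing genes in place of probes, with fewer features, gave 12 calls for lean 80% and 2 for lean 80% against 70%. The main fit, counted by 1 probe per gene, also gave 12 and 2. With slide as a random block (correlation 0.123) the calls were 15 for lean 70%, 1 and 2 for 80% against 70% in lean and obese livers and 3 for the interaction at 70%, and 26 gene calls were lost. With slide as a fixed term they were 4 for lean 70%, 16 for obese against lean sham, 3 for obese against lean at 80% and 0 for obese 80% against 70% (12 at an unadjusted p under 0.05), and Rps3a1 turned to -0.041 in lean 70% livers. The interaction at 80% had 0 calls so fitted (12 at an unadjusted p under 0.05). A fixed slide term could not be fitted for the other comparisons, which span unlinked slides. With the replicate number as a block the counts were 30 for obese against lean sham, 29 and 21 for lean 70% and 80%, and 17 and 39 for obese 70% and 80%, and 3 gene calls were lost. Leaving out single arrays gave 22 to 38 calls for obese against lean sham, 1 to 8 for lean 80% against 70%, 1 to 9 for obese 80% against 70% and 2 to 7 for the interaction at 80%. Of the gene values so recomputed, 157 lost a call, 24 gained one and 0 changed sign with a call. The other 4739 kept their call or stayed without one, and the direction of those without a call was not checked. The cause of the changed counts was not tested. With 4 arrays a group and probes such as those of Rps15a and Rps19bp1 near the detection limit, small differences are not measured well, and slide pair cannot be told apart from group for most resection comparisons.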
